A study of Mus musculus and Rattus norvegicus with 2 samples.

Results

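Fragments of ribosomal RNA (rRNA) of 26 to 45 nt were described in sperm of the mouse and the rat. The members are the distinct sequences of that length that the authors assigned to a GenBank entry labelled rRNA, with matches on the minus strand turned back to the letters of the read. They number 40942 of the 226567 sequences in both tables, which are 7844 of 89179 in mouse sperm and 33098 of 137388 in rat sperm. Of the mouse sequences, 381 have no readable count, so 7463 carry the mouse values below.

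The small RNAs came from purified sperm of the cauda epididymis, the tail of the epididymal duct, where mature sperm are held. The mice were C57BL/6 animals of 2 months. The rats were Sprague Dawley young adults of 450 g. No treatment or mutation is named, and both libraries hold the fraction of 18 to 45 nt of total RNA extracted with Trizol. There was 1 library per species, and the sources used here do not give the number of animals behind it. No difference between the species therefore has a replicate check, species cannot be told apart from library, and no p-value is given. Intervals in brackets are exact 95% intervals, and they cover counting error only, since copies made by PCR were not told apart from separate molecules.

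The tables list 691381 mouse reads and 2102735 rat reads. Reads under identifiers that are missing from the tables, at least 53.9% of all reads for the mouse and 13.7% for the rat, were not analysed here, so every share is of the listed reads. As a check of the labelled cell type, the summed level of 3 microRNAs of late germ cells and sperm was 430 reads per 1000000 listed reads in mouse sperm and 2939 in rat sperm. The sum for 2 microRNAs of smooth muscle and stroma was 3479 in mouse sperm and 394 in rat sperm, for 3 of epididymal epithelium 869 in mouse sperm and 136 in rat sperm, and for 3 of blood 59.3 in mouse sperm and 0.476 in rat sperm. At 0 were none of these 11 in mouse sperm, and miR-451a and miR-486-5p in rat sperm. Of the 11, only miR-200a-3p of the epithelium differed in direction from its sum per listed read, with 3 reads in mouse sperm and 18 in rat sperm. The stroma sum was nearly all miR-143-3p, with 2392 of 2405 reads in mouse sperm and 813 of 828 in rat sperm. The part of these other cells in the fragments below was not tested.

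Ribosomal RNA is the catalytic and structural core of the ribosome. The large and small subunit rRNAs and 5.8S rRNA are cut from a long nuclear precursor, 5S rRNA is made from separate genes, and mitochondria encode their own pair, mt-Rnr1 and mt-Rnr2. Mature sperm carry little intact rRNA, and small pieces of it are a known part of the short RNAs of sperm.

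The sequences that carried most member reads are shown first. Members that share a run of 18 nt with a more abundant one were grouped into an overlap region, the regions were ordered by the mean of their shares in the 2 libraries, and each is shown by its most abundant sequence. Capitals mark the first 18 nt, which define a 5′ start. Regions 1 to 12 are below, followed by regions 19, 20 and 25, which are named later.
Region 1: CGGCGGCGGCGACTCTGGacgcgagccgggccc
Region 2: ACGCACGTTCGTGTGGAAcctggcgct
Region 3: CGGCGGCGTCCGGTGAGCtctcgctggcc
Region 4: AGGAGTCTAACGCGTGCGcgagtcaggggc
Region 5: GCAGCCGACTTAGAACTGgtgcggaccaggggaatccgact
Region 6: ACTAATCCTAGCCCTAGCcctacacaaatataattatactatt
Region 7: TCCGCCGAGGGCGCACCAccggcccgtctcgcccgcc
Region 8: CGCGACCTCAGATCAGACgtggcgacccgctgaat
Region 9: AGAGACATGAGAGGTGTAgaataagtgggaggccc
Region 10: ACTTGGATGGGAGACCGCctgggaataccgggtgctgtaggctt
Region 11: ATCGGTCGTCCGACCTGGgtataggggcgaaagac
Region 12: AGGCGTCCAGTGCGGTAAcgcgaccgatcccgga
Region 19: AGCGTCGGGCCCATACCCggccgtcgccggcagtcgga
Region 20: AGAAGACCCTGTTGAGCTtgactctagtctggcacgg
Region 25: CCGGGGCTACGCCTGTCTgagcgtcgct

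Region 6 matched the mouse mitochondrial gene mt-Rnr2, region 10 shared letters with sequences labelled 5S rRNA by Rfam, and region 25 shared letters with sequences labelled 5.8S rRNA. The other regions shown shared no run of 18 nt with Rfam rRNA and matched no mouse mitochondrial rRNA gene. Region 8 carries the letters with which mammalian 28S rRNA begins, as general background; no 28S rRNA reference was used here.

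Members made up 46857 reads, or 6.78% of the listed reads, in mouse sperm (6.72 to 6.84%) and 604831 reads, or 28.8%, in rat sperm (28.7 to 28.8%). The mouse share was 0.236 times that of the rat. Among listed reads with 0 mismatches the shares were 12.5% in mouse sperm and 35.5% in rat sperm, a ratio of 0.353. Over reads of any label that share 18 nt with a member they were 17.0% in mouse sperm and 46.1% in rat sperm, a ratio of 0.369. Within all reads on GenBank rRNA entries, members held a similar part, 64.8% in mouse sperm and 66.4% in rat sperm. Nearly all of the rest was shorter than 26 nt, with 24257 such reads in mouse sperm and 305593 in rat sperm, while 1250 mouse reads and 858 rat reads were longer than 45 nt. Just outside the lower limit, 25 nt held 2466 reads in mouse sperm and 50459 in rat sperm, and just inside, 26 nt held 2932 in mouse sperm and 55571 in rat sperm. At the upper limit, 45 nt held 604 mouse reads and 378 rat reads, and 46 nt held 417 mouse reads and 218 rat reads.

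Mouse fragments were longer than rat fragments. The most frequent length was 43 nt in mouse sperm, with 12.5% of member reads, and 30 nt in rat sperm, with 12.3%. Mean length was 35.1 nt in mouse sperm and 31.4 nt in rat sperm, with an SD over reads of 5.72 nt in mouse sperm and 3.59 nt in rat sperm. Lengths of 35 to 45 nt held 57.7% of mouse member reads (57.2 to 58.1%) and 22.3% of rat member reads (22.2 to 22.4%). Lengths of 29 to 32 nt held 13.2% in mouse sperm (12.9 to 13.6%) and 36.6% in rat sperm (36.5 to 36.7%). Lengths of 40 to 45 nt, within the longer range, held 27.1% in mouse sperm and 1.76% in rat sperm.

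The profiles were not smooth. Mouse reads formed separate peaks at 27 nt (8.22%), 35 nt (11.99%) and 43 nt, with a smaller one at 41 nt (4.44%), and low points at 30 nt (2.15%) and 33 nt (1.98%). Rat reads peaked at 26 nt (9.19%), 30 nt, 33 nt (11.4%) and 35 nt (10.1%), and from 36 nt on each length held less than the one before. At the most frequent length of each library, a few sequences held a large part of the reads. The other peaks are not broken down by sequence here. At 43 nt in mouse sperm, 55.6% of the reads were the single sequence shown for region 6. At 30 nt in rat sperm, 24.1% of the reads were a 30 nt form of region 1, 14.5% the sequence shown for region 4 and 8.84% a form of region 3. The label could change with length within 1 fragment, and reads with other labels are not in these profiles. In region 8 the rat form of 35 nt (20481 reads) was a member. Its forms of 36 nt (23277 reads) and 34 nt (14434 reads) carried a GenBank mRNA label. In region 11 the mouse form of 35 nt (662 reads) was a member, and that of 36 nt (1271 reads) was not. How far the label shaped the peaks was not tested.

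**Figure D1:**
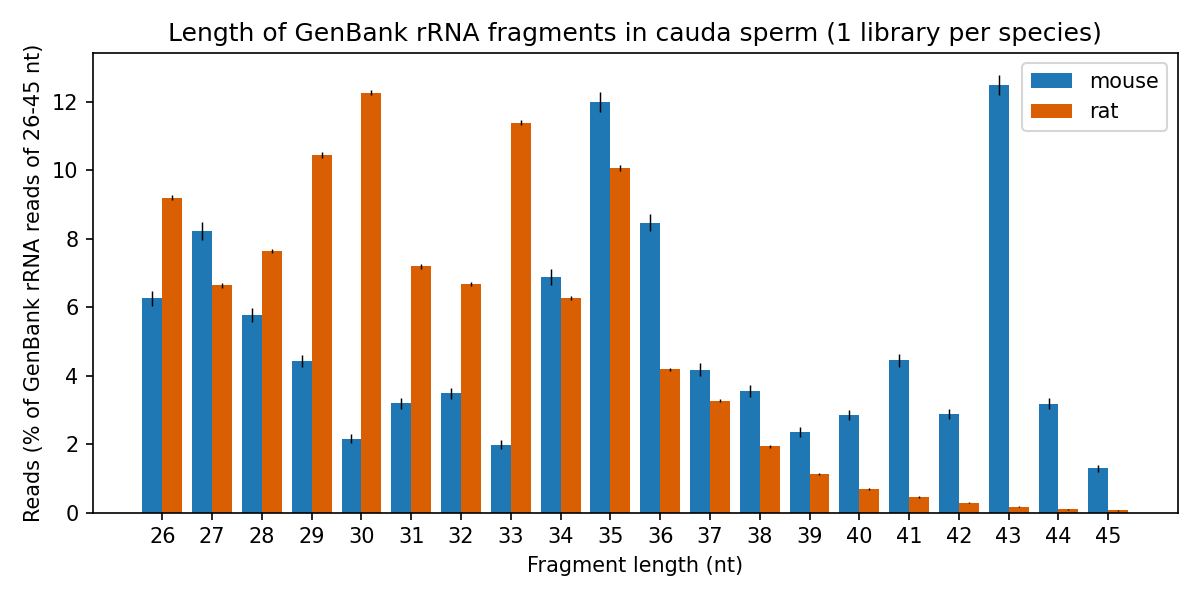
Share of member reads at each length from 26 to 45 nt (horizontal axis) in mouse sperm (blue, left bar) and rat sperm (orange, right bar), in percent of the member reads of that library, with exact 95% intervals for counting error. The mouse bars stand highest at 43 nt (12.5%) and 35 nt (11.99%), and the rat bars at 30 nt (12.3%) and 33 nt (11.4%).

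The mouse peak moved without the mitochondrial fragment, and the difference between the libraries remained. Without sequences that match mouse mt-Rnr1 or mt-Rnr2 exactly, the most frequent mouse length was 35 nt with 12.97% of reads, against 30 nt with 12.3% in rat sperm, and lengths of 35 to 45 nt held 54.3% in mouse sperm and 22.3% in rat sperm. Only mouse genes were used, which took out 40 rat reads. Rat mitochondrial fragments with other letters stayed in, so the rat values could hardly change. The difference was also present in rRNA labels that the rule left out. Reads of 26 to 45 nt labelled 18S rRNA by Rfam averaged 37.0 nt in mouse sperm and 31.4 nt in rat sperm, and those labelled 5S rRNA 37.8 nt in mouse sperm and 31.7 nt in rat sperm. All listed reads of that length outside GenBank rRNA averaged 32.7 nt in mouse sperm and 31.1 nt in rat sperm, with 23.3% at 35 to 45 nt in mouse sperm and 13.3% in rat sperm, and with a peak at 30 nt in both.

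The same place in the rRNA also gave longer pieces in mouse sperm. Of 160 starts with at least 20 member reads in both libraries, 129 had the higher mean length in mouse sperm and 31 in rat sperm, and the median difference, mouse minus rat, was 2.35 nt. Of 44 regions with at least 100 member reads in both, 40 were longer in mouse sperm, with a median difference of 2.99 nt and a range of -3.06 to 7.82 nt. When all reads of 26 to 45 nt over these regions were counted whatever their label, 40 of 44 were again longer in mouse sperm, with a median of 2.70 nt. With the same weight for each region in both libraries, mean length was 33.7 nt in mouse sperm and 31.6 nt in rat sperm, a difference of 2.16 nt. With each library's own weights it was 34.9 nt in mouse sperm and 31.5 nt in rat sperm, a difference of 3.48 nt. These 44 regions held 46.5% of mouse and 59.1% of rat member reads. Starts, regions and lengths within 1 library share its size selection, so they are not replicates.

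Region 4 shows the difference letter by letter. Its member reads averaged 38.8 nt in mouse sperm and 31.8 nt in rat sperm. The most abundant mouse and rat forms are printed with the last 18 nt in capitals.
Region 4, mouse, 43 nt, 137 reads: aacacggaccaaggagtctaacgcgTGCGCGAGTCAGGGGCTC
Region 4, rat, 30 nt, 10767 reads: aggagtctaacgCGTGCGCGAGTCAGGGGC

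The mouse form holds the whole rat form, with added letters at both ends. Over all labels, the most frequent mouse start of region 4 lay 8 nt upstream of the rat one and held 29.2% of the mouse reads, against 35.1% of rat reads at the rat start. The most frequent mouse end lay 2 nt downstream of the rat end and held 25.6% of mouse reads, against 47.8% at the rat end. Region 7 differed in the same direction, 36.9 nt in mouse sperm and 31.1 nt in rat sperm. Of its mouse reads under any label, 64.8% began at the first base shown, and 71.6% ended at the last base shown. The leading rat start, with 45.8% of rat reads, lay 2 nt inside and the leading rat end, with 29.6%, lay 3 nt inside. Region 1 went the other way, with 28.9 nt in mouse sperm and 31.9 nt in rat sperm.

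**Figure D2:**
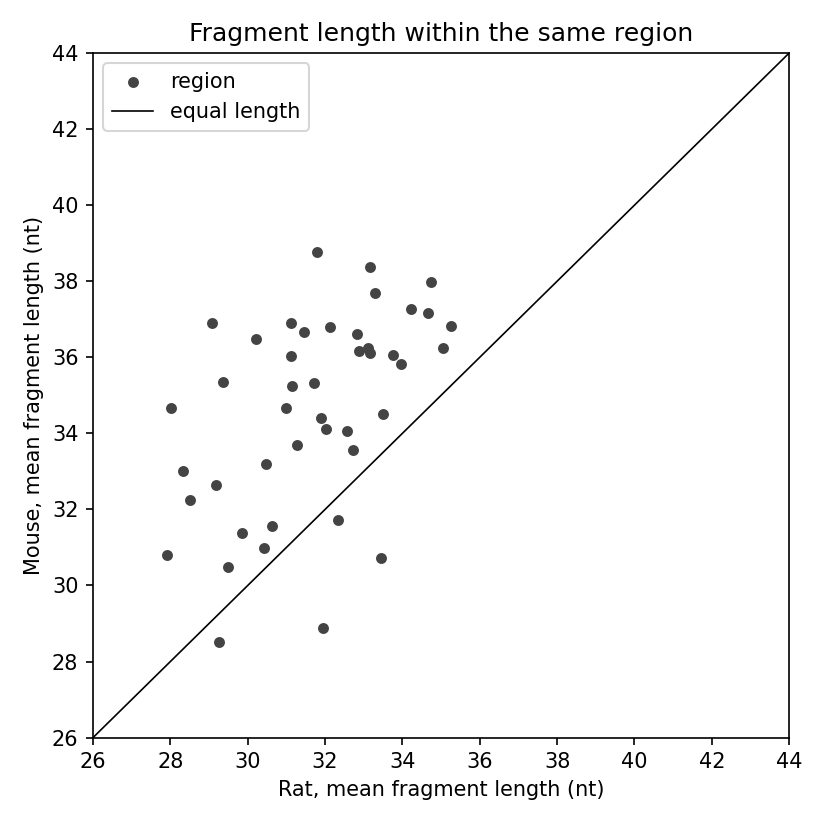
Mean length of member reads in each of 44 regions with at least 100 member reads in both libraries, mouse on the vertical axis and rat on the horizontal axis, both in nt. Each point is a region and the line marks equal length: 40 points lie above it, and the median difference is 2.99 nt.

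The members came from few places in both libraries. The 10 most abundant starts held 29.4% of member reads in mouse sperm and 36.9% in rat sperm. The 10 most abundant ends, taken as the last 18 nt, held 41.8% in mouse sperm and 39.6% in rat sperm. By this count both libraries were more concentrated by end than by start, with the wider gap in mouse sperm. As many as 50% of the reads lay in the 90 most abundant of 7463 mouse sequences and in the 96 most abundant of 33098 rat sequences. At the other extreme, 59.7% of mouse and 54.9% of rat member sequences had 1 read. By region, the 10 largest held 59.6% of mouse and 59.2% of rat member reads.

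Among the regions that lead in mouse sperm, region 6 is a piece of mt-Rnr2, the RNA of the large subunit of the mitochondrial ribosome. It held 3600 member reads (7.68%) in mouse sperm and 0 of 604831 in rat sperm, where a count of 0 allows up to 0.000496% of the listed member reads. Its main sequence, with 3250 reads, lies at MT:1094-1136 on the plus strand of the GRCm38 build and is exonic; it covers the first 43 bases of mt-Rnr2, which is annotated at MT:1094-2675. Its ends were sharp, since 95.1% of the member reads of the region had the same start and 93.3% the same end. A further 31.6% of the mouse reads over it carried the label GenBank mitoRNA. In the rat no read under any label shared 18 nt with it, so a rat counterpart with other letters would not be found this way.

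Region 10 lies in 5S rRNA, the small RNA of the large ribosomal subunit. It had 1797 member reads (3.84%) in mouse sperm and 4 in rat sperm. This contrast came with the label: counted under any label, the region had 6138 reads, or 0.888% of listed reads, in mouse sperm and 16746, or 0.796%, in rat sperm. In the rat 63.4% of them carried a GenBank mRNA label and 36.6% the Rfam 5S label. Both libraries ended at the same base, with 53.0% of mouse reads and 56.9% of rat reads at the end shown. Starts were spread in mouse sperm, with 10.3% at the most frequent, the first base shown, while the most frequent rat start lay 14 nt further in and held 23.8%. Mean length over the region was 38.2 nt in mouse sperm and 32.5 nt in rat sperm.

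Region 2 was the largest in mouse sperm, with 9086 member reads (19.4%, interval 19.0 to 19.8%) against 36 (0.00595%) in rat sperm. Under any label it had 12191 reads, or 1.76% of listed reads, in mouse sperm and 3754, or 0.179%, in rat sperm, and 99.04% of the rat reads carried a GenBank mRNA label. So the label removed nearly all rat reads from the members, and the mouse level was still the higher one without it. Its mouse member reads had 32 starts and 34 ends, of which the most frequent start held 21.8% of the member reads and the most frequent end 70.7%. The 4 most abundant mouse forms share that end and differ in their start; the last 18 nt are in capitals.
Region 2, mouse, 1629 reads: acgcacgttCGTGTGGAACCTGGCGCT
Region 2, mouse, 1314 reads: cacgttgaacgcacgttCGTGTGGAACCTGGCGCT
Region 2, mouse, 989 reads: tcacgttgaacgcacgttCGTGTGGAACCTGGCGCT
Region 2, mouse, 638 reads: aacgcacgttCGTGTGGAACCTGGCGCT

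The letters upstream of the common part were not the same in rat sperm. The most abundant region 2 sequences of at least 35 nt in each library are set side by side below, with their longest shared run, 23 nt, in capitals. The mouse one is a member, and the rat one, with 131 reads, carries a GenBank mRNA label.
Region 2, mouse, 35 nt: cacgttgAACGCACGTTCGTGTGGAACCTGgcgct
Region 2, rat, 40 nt: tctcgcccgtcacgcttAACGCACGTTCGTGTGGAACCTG

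The ends of region 2 were offset by 1 nt. Under any label, 60.6% of mouse reads ended at the last base shown for the region and 24.1% at a second end 5 nt downstream, while 48.8% of rat reads ended 1 nt before it. Region 5 behaved likewise as to labels, with 4295 member reads (9.17%) in mouse sperm and 59 (0.00975%) in rat sperm, but 4492 reads, or 0.650% of listed reads, in mouse sperm and 3316, or 0.158%, in rat sperm under any label. Its most frequent end held 58.4% of mouse member reads.

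Region 7 held 4.09% of member reads in mouse sperm and 0.593% in rat sperm, and under any label 0.298% of listed mouse reads and 0.180% of listed rat reads. Region 9 held 3.27% in mouse sperm and 0.978% in rat sperm, and region 11 held 2.77% in mouse sperm and 0.583% in rat sperm. In region 11 the label hid most of the mouse reads: 71.5% of the 4573 reads over it in mouse sperm were labelled GenBank mRNA, against 4.96% of 3709 in rat sperm. Its start was shared, with 72.01% of mouse reads and 59.5% of rat reads at the first base shown. Regions 20 and 9 are neighbours on 1 RNA, since 14 mouse sequences with 17 reads and 7 rat sequences with 10 reads held letters of both, the longest of them 69 nt in mouse sperm and 70 nt in rat sperm.

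Among the regions that lead in rat sperm, region 1 was the largest of all, with 746 member reads (1.59%, interval 1.48 to 1.71%) in mouse sperm and 135050 (22.3%, interval 22.2 to 22.4%) in rat sperm. Nearly all reads over it carried the GenBank rRNA label in both libraries, so its listed share under any label, 0.108% in mouse sperm and 6.42% in rat sperm, repeats the contrast. Its rat reads differed in the number of CGG units at the 5′ end. The main rat forms with 2, 3 and 4 units follow, with the start in capitals.
Region 1, rat, 17859 reads: CGGCGGCGACTCTGGACGcgagccgggccc
Region 1, rat, 37932 reads: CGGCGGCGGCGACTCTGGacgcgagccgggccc
Region 1, rat, 12947 reads: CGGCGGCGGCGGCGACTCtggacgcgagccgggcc

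Counted over reads of any label whose letters after the units matched the region exactly, mouse reads beginning with 1, 2, 3 and 4 units numbered 114, 109, 0 and 0. Rat reads with 1, 2, 3 and 4 units numbered 2020, 24626, 58347 and 20773. No listed mouse read held more than 2 units before the common part, and no listed rat read more than 4. The letters upstream of the units in each species were not analysed here. The 30 nt form with 2 units was in both libraries, with 60 reads in mouse sperm and 17859 in rat sperm, and it led the shared sequences by the mean of both shares.

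Region 3 held 3.87% of member reads in mouse sperm and 11.4% in rat sperm, and region 4 held 3.50% in mouse sperm and 7.28% in rat sperm. In region 3 the label took mouse reads away, since 33.6% of the mouse reads over it were named as piRNA and 0 of the rat reads were. The mouse and rat reads of region 3 ended mostly at the last base shown or 1 nt after it, with 35.8% and 34.8% of mouse reads at these ends and 63.5% and 18.1% of rat reads. The leading rat sequence of region 12 is 34 nt long with 7104 reads. Region 12 held 0.751% of member reads in mouse sperm and 2.48% in rat sperm, and under any label 0.0555% of listed mouse reads and 1.60% of listed rat reads.

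Region 8 had 0 member reads in mouse sperm, which allows up to 0.00640% of the listed member reads, and 27838 (4.60%) in rat sperm. The bound does not cover mouse reads missing from the tables, which were not analysed. This also holds for the other counts of 0 here. Under any label it had 0 mouse reads and 102316 rat reads of 26 to 45 nt, and 585 mouse reads and 4237 rat reads of 18 to 25 nt. In the rat 61.2% of the longer reads carried a GenBank mRNA label and 11.6% a piRNA label. They began at 1 base in 93.7% of cases, with ends spread over several bases, the most frequent at 24.8%. Region 25, the piece linked to 5.8S rRNA, likewise had 0 member reads in mouse sperm and 9878 (1.63%) in rat sperm, and under any label 0 mouse and 67278 rat reads of 26 to 45 nt, and 40 mouse and 9877 rat reads of 18 to 25 nt. Region 19 had 44 member reads (0.0939%) in mouse sperm and 12678 (2.10%) in rat sperm.

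**Figure D3:**
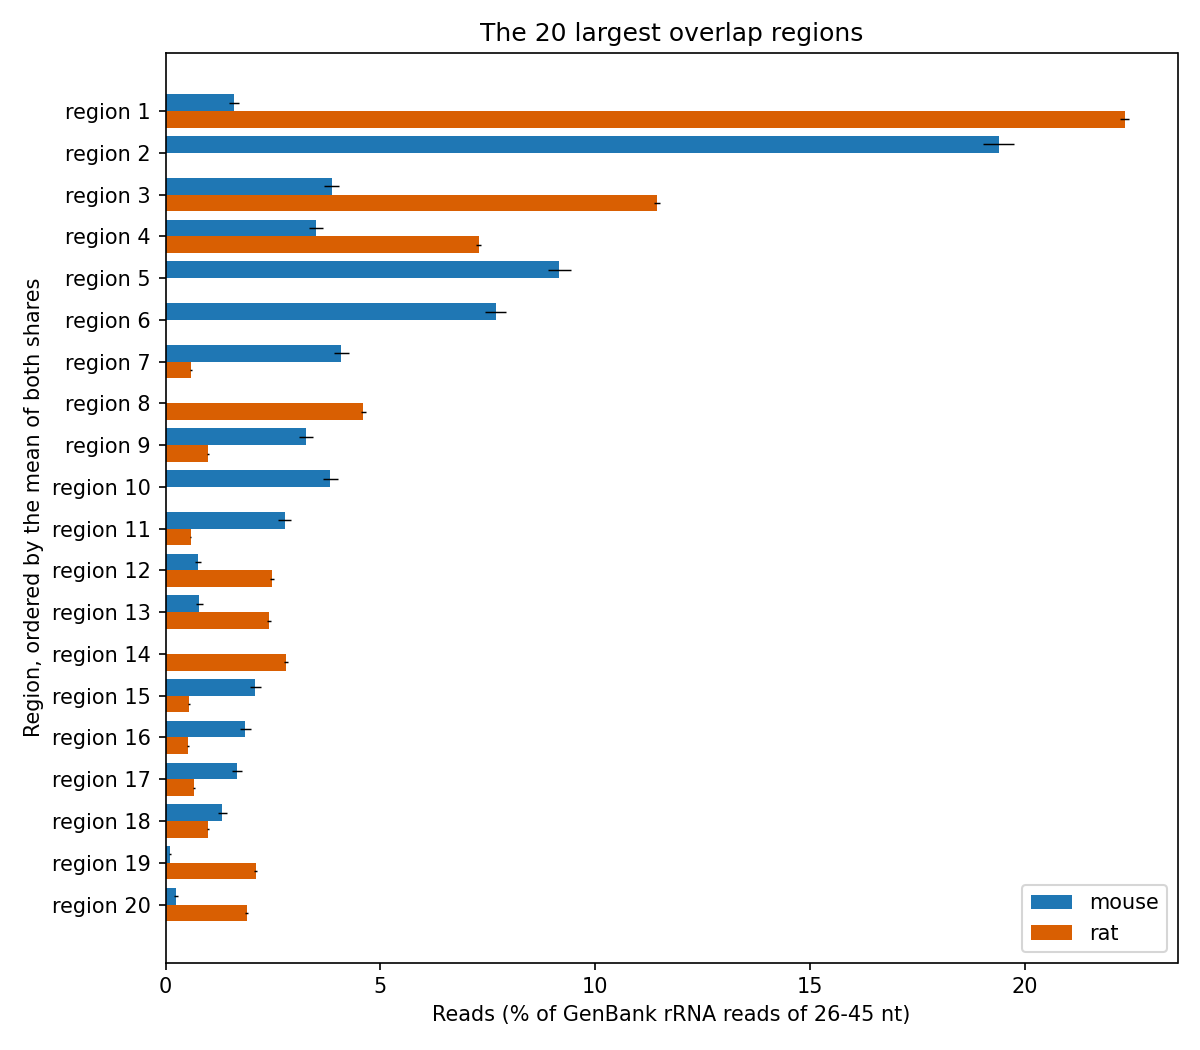
Share of member reads (horizontal axis, percent of the library's member reads) in the 20 largest overlap regions, mouse (blue) above rat (orange), with exact 95% intervals for counting error. Region 1 holds 1.59% in mouse sperm and 22.3% in rat sperm, and region 2 holds 19.4% in mouse sperm and 0.00595% in rat sperm. Reads with other labels are not counted here. These are most of the mouse reads over regions 9, 10, 11, 17 and 20 and most of the rat reads over regions 2, 5, 8, 10 and 12.

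**Figure D4:**
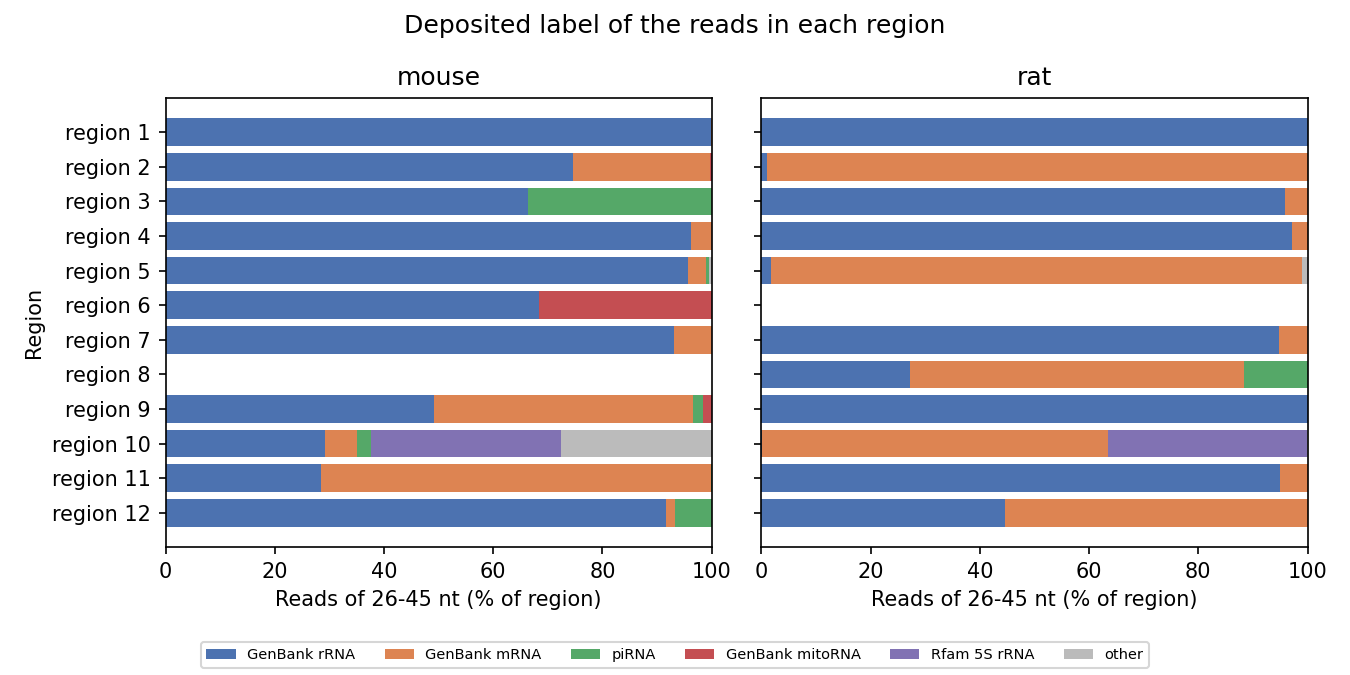
Deposited label of all listed reads of 26 to 45 nt that share 18 nt with regions 1 to 12, as percent of the reads over the region, mouse in the left panel and rat in the right; a blank row means no read. Reads over region 2 are 74.5% GenBank rRNA in mouse sperm and 99.04% GenBank mRNA in rat sperm.

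The level of each start was compared as reads per 1000000 listed reads, with a pseudocount of 1, over the 600 starts with at least 100 member reads in either library. This minimum stands for a level of 145 in mouse sperm and 47.6 in rat sperm, so it let in more rat starts: 84 starts reached it in mouse sperm and 549 in rat sperm, and 516 in rat sperm alone. Past 4-fold, 53 starts (8.83%) were higher in mouse sperm and 479 (79.8%) in rat sperm. Among all 1742 listed starts that reached 100 reads in one library or the other, 13.5% were past 4-fold higher in mouse sperm and 58.4% higher in rat sperm. Since the minimum favours the deeper library, nothing is read from this split. With the mouse level of 145 as the minimum for both libraries, 305 member starts remained, reached by 84 in mouse sperm and 246 in rat sperm. Of these 53 (17.4%) were higher in mouse sperm and 217 (71.1%) in rat sperm, against 23.1% in mouse sperm and 51.9% in rat sperm among all 1021 listed starts over that level. Of the 600 member starts, 339 had 0 member reads in mouse sperm and 35 had 0 in rat sperm, and 226 had reads in both. The same counts over all listed starts are not given here, so these are not read as particular to members. Starts were matched letter for letter. A start whose letters differ between the species therefore counts as 0 in the other and can be called whatever the fragment level. How many of the calls are of this kind was not tested. With reads of any label counted for these 600 starts, 53 were higher in mouse sperm and 445 in rat sperm. Scaled per 1000000 member reads, with the same minimum level of 2134 in both libraries, 139 starts remained, of which 64 (46.04%) were higher in mouse sperm and 53 (38.1%) in rat sperm. The majority toward the rat was absent once members were scaled to their own total under an equal minimum. With the minimum of 100 reads kept, this scaling gave 70 starts higher in mouse sperm and 411 in rat sperm. No share over all listed starts is given here for the counts under any label or per 1000000 member reads. Both libraries are single, so these are differences between 2 libraries.

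The 10 leading mouse starts came from 5 regions. They were the start of region 6 with 3423 reads, 5 starts of region 2 with 730 to 1982 reads each, those of regions 7 and 11 with 1255 and 765, and 2 starts of region 5 with 1078 and 958. In the rat, 8 of these 10 starts had 0 member reads, that of region 7 had 77, and that of region 11 had 2099. Under any label the leading region 2 start had 2496 reads in mouse sperm and 1191 in rat sperm, and the leading region 5 start 1104 in mouse sperm and 330 in rat sperm. The letters of the longer region 2 starts were nearly absent from the rat under any label, with 1607 mouse reads and 1 rat read for the 35 nt form shown. Rat reads over region 2 also began upstream of the first base shown, but with the other letters printed above. Of these rat reads under any label, 593 began 4 nt and 289 began 18 nt upstream.

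The 10 leading rat starts were 3 of region 1, 3 of region 3, and 1 each of regions 4, 8, 12 and 25. The first start of region 1 had 0 reads in mouse sperm and 61667 in rat sperm, and its form with 4 units 0 in mouse sperm and 22964 in rat sperm. The leading start of region 3 had 91 member reads in mouse sperm and 24135 in rat sperm, or 431 in mouse sperm and 24432 in rat sperm under any label. The start of region 4 had 29 in mouse sperm and 15344 in rat sperm, a log2 difference of -7.41, the largest toward the rat among starts that had 100 reads or more in one species and 10 or more in the other. By the same rule the next was the start of region 20, with 10 reads in mouse sperm and 3371 in rat sperm, at -6.70.

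Toward the mouse, the start of region 7 had the largest log2 difference under that rule, 5.59. It was followed by the starts of the 2 sequences below, with 242 reads in mouse sperm and 15 in rat sperm for the first (log2 difference 5.43), and 259 in mouse sperm and 40 in rat sperm for the second (4.23).
Mouse-leading start, 27 nt form: CCCGAGGTGGGATCCCGAggcctctcc
Mouse-leading start, 34 nt form: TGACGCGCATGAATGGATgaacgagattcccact

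Some calls depended on the label. A start upstream in region 3 had 255 member reads in mouse sperm and 63 in rat sperm, a log2 difference of 3.58, but 255 in mouse sperm and 669 in rat sperm under any label, a difference of 0.21. In all, 8 starts called higher in mouse sperm and 36 called higher in rat sperm were no longer past 4-fold with any label counted.

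**Figure D5:**
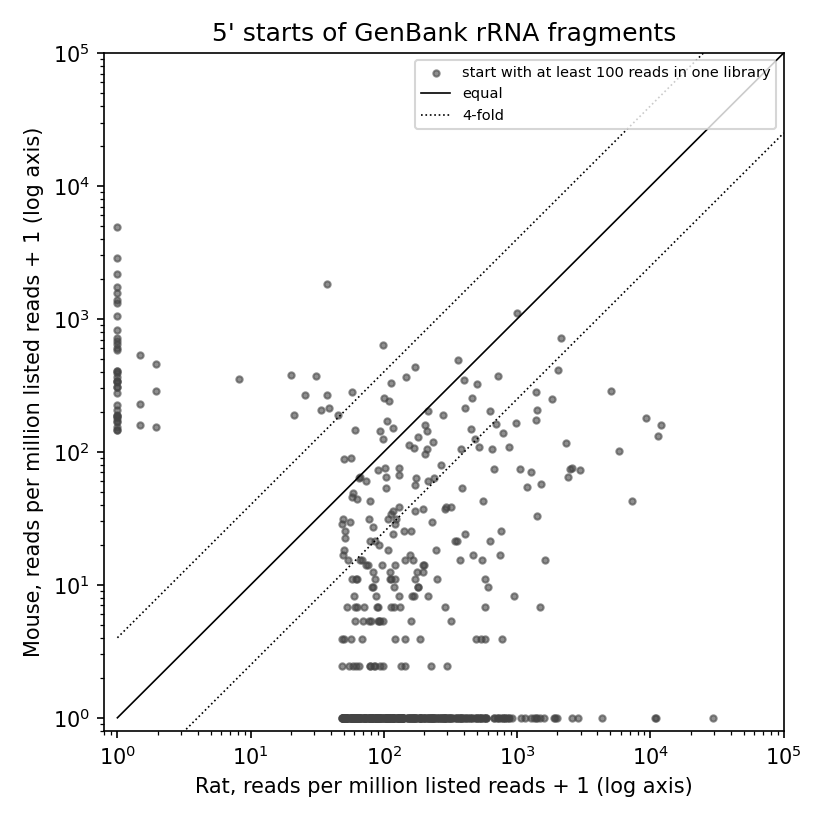
Level of each of the 600 member starts with at least 100 member reads in either library, in reads per 1000000 listed reads plus 1, mouse on the vertical axis and rat on the horizontal axis, both logarithmic. The solid line marks equal level and the dotted lines 4-fold: 53 starts lie beyond it toward the mouse and 479 toward the rat, where the minimum of reads is a lower level, with 35 on the left edge (0 in rat sperm) and 339 on the bottom edge (0 in mouse sperm). Starts were matched letter for letter, so a start with other letters in the other species counts as 0 there. Counts at 0 over all listed starts are not given here.

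The reads rested on few database entries. They hit 228 entries in mouse sperm and 63 in rat sperm, and the 3 most used held 90.0% of member reads in mouse sperm and 93.6% in rat sperm. In the mouse a single entry held 70.3%, the second 12.4% and the third 7.37%. The fourth, with 1821 reads (3.89%), is the gene n-R5s136 by RefSeq's gene table, a nuclear 5S rRNA gene. In the rat the first entry held 50.03%, the second 36.3% and the third 7.27%. A rat start could fall on several entries: of 549 starts with at least 100 reads, 504 (91.8%) were split over more than 1 entry, against 24 of 84 (28.6%) in mouse sperm. The first and second rat entries share their letters, since 96.8% of reads on the first shared 18 nt with reads on the second. Entries are therefore no measure of separate rRNA genes.

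The third rat entry is a RefSeq mRNA record, and 100% of its 43968 reads matched its minus strand. Turned back to the letters of the read, 90.3% of them shared 18 nt with reads on the first or second entry; as printed, 0% did. Rat reads with the region 12 start are among these. Over all entries the minus strand held 0.0790% of member reads in mouse sperm and 7.27% in rat sperm. Of the mouse entries, 50 matched a RefSeq mouse gene by accession, and 49 of these were protein coding genes, with 98 reads in all.

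Few member reads matched an annotated mouse transcript exactly, and no rat transcripts were used. Exact matches to GENCODE mouse transcripts covered 13.3% of mouse and 0.985% of rat member reads. Genes annotated there as rRNA, apart from the mitochondrial pair, matched 3 mouse member reads. The low match rate therefore does not tell whether members come from rRNA. The largest in mouse sperm was mt-Rnr2 with 3705 reads, followed by 2 noncoding transcripts on chromosome 17, Gm26917 with 294 and Gm42418 with 202. In the rat, Gm42418 had 3374 reads, and 2452 reads matched a transcript of Lars2, which encodes a mitochondrial leucyl-tRNA synthetase. Reads that match such genes also carry an rRNA label, and their source between the 2 cannot be told apart.

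Members differed in letters from listed reads of the same length outside GenBank rRNA. G and C made up 60.5% of bases in the mouse members and 75.4% in the rat members, against 53.6% in mouse and 58.3% in rat reads of the same length outside GenBank rRNA. The GenBank rRNA fragments of 18 to 25 nt held more G and C than the members, 70.5% in mouse sperm and 78.3% in rat sperm. Their first base was most often C, with 36.4% in mouse sperm and 51.2% in rat sperm. The first base of the members was most often A in mouse sperm (37.1%, with C at 24.0%) and C in rat sperm (58.5%, with A at 23.0%). Outside GenBank rRNA it was most often G, with 49.0% in mouse sperm and 38.2% in rat sperm. The last base of the members was most often T in mouse sperm (46.1%) and C in rat sperm (61.9%). Outside GenBank rRNA it was most often C in both, with 61.0% in mouse sperm and 47.5% in rat sperm. Counted by reads, 98.2% of mouse and 92.9% of rat members had no mismatch to the entry. Counted by distinct sequence, 91.0% of mouse and 56.2% of rat members had none. Since 1 abundant start or end can set such a share, these values describe the mix of fragments. Of member reads, 67.9% in mouse sperm and 96.0% in rat sperm had a start that GenBank rRNA fragments of 18 to 25 nt also had. Depth was not made equal for this count, and these shorter reads numbered 24257 in mouse sperm and 305593 in rat sperm.

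Both libraries held 2011 member sequences letter for letter, which were 26.9% of mouse and 6.08% of rat member sequences. They carried 33.7% of mouse member reads (33.3 to 34.1%) and 22.8% of rat member reads (22.7 to 22.9%). The rat library is deeper, with 12.9 times the member reads. With the rat members thinned to the mouse number, by formula and with no random draw, 822 sequences were expected to be shared, and the mouse share was 22.6%, against 22.8% in rat sperm, so the order seen at full depth did not hold. The label also limits the overlap. Of mouse member reads, 61.1% were of sequences listed in the rat table under any label, and of rat member reads 36.7% were of sequences listed in the mouse table. Of 677 mouse member sequences found in rat sperm under another label only, 638 were labelled GenBank mRNA there. No such shares over all listed sequences are given here, so the overlap is not read as particular to members.

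Shared sequences were often abundant in 1 library alone. The region 7 sequence shown had 986 reads in mouse sperm and 14 in rat sperm, the region 4 sequence 14 in mouse sperm and 10767 in rat sperm, and the region 12 sequence 20 in mouse sperm and 7104 in rat sperm. The region 11 sequence had 662 reads (1.41% of member reads) in mouse sperm and 811 (0.134%) in rat sperm. Other leading shared sequences were closer by share, and a 31 nt form of region 3 had 178 reads (0.380%) in mouse sperm and 1912 (0.316%) in rat sperm. Looser matching raised the overlap: 83.5% of mouse and 70.1% of rat member reads shared a run of 18 nt with a member of the other species, and 183 of 1654 regions, with reads of both, held 86.2% of mouse and 70.0% of rat member reads.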

How the data were processed

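Small RNAs of 18 to 45 nt were sequenced from purified cauda sperm, with 1 library per species. The deposited values are raw counts of reads per distinct sequence, given by the authors with strand, database entry and mismatches, of which up to 2 were allowed according to the headers of the files. The submitters' processing notes name Bowtie 0.12.7 and, with no role, the builds mm9 and rn5. Each sequence has 1 entry; how adapters were trimmed, which database came first and which of several matching entries was kept are not given here. For minus-strand matches the printed letters are the reverse complement of the read, as all 18434 mouse and 28090 rat mismatch positions on that strand show, so they were turned back.

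In 2535 mouse rows, 381 of them members, the count had become a date. These were left out, as in the authors' own total, and read back as an alternative. Depth was 691381 mouse and 2102735 rat reads; a count of 0 allows 3 counts. Intervals are Clopper-Pearson at 95%.

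Starts are the first 18 nt; regions were built by joining members to the most abundant member with which they share 18 nt. Starts were compared per 1000000 listed reads with a pseudocount of 1, called past 4-fold, and given with no p-value; an equal minimum level in both libraries was an alternative chosen after seeing the data. Named items are the 10 leading starts and entries of each library, the 5 largest ratios each way among starts that had 100 reads or more in one species and 10 or more in the other, the 5 leading starts at 0 in the other library, and the leading shared and modal-length sequences. Regions, their ends and the CGG units were chosen after values were seen. Members and lists were chosen with earlier results of these data known. Sequences come from the deposited tables, mitochondrial positions from GENCODE on GRCm38, and gene names from RefSeq. Python 3.11.15, numpy 2.4.6, scipy 1.17.1 and matplotlib 3.10.9 were used.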

Additional observations from a re-analysis of the deposited data

How the results depend on the processing

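Values here are mouse minus rat, in percentage points. As reported, the difference was -22.0 for the member share of listed reads, 35.3 for reads of 35 to 45 nt, -23.3 for 29 to 32 nt, -7.54 for the 10 leading starts, 10.9 for shared sequences and -3.63 for the 3 leading entries. In this order of the 6 results, counting each sequence once gave -15.5, 21.6, -13.5, -1.16, 20.9 and -1.64. Sequences of at least 10 reads gave -23.0, 37.2, -25.2, -1.16, 10.4 and -2.02. Leaving out the 10 most abundant member sequences of each library gave -17.5, 28.9, -20.6, -2.73, 16.6 and -1.95. The plus strand alone gave -19.9, 36.4, -24.7 and -8.76 for the first 4 and -4.98 for entries. With 0 mismatches the share was -23.0, starts -9.06 and shared sequences 9.61. A window of 27 to 44 nt gave -19.8 for the share, -7.05 for starts, 9.89 for shared sequences and -3.17 for entries. Counts read back from dates gave -21.7 for the share, -9.36 for starts and 9.60 for shared sequences.

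Alternatives chosen after seeing the data follow. Without exact matches to the mouse mitochondrial rRNA genes, reads of 35 to 45 nt gave 32.02 and of 29 to 32 nt -22.3. With every label that shares 18 nt with a member, the share gave -29.1, 35 to 45 nt 43.1 and 29 to 32 nt -24.9. Rat members thinned to the mouse number turned shared sequences round, to -0.21. With the minimum set at the same level in both libraries, the count of starts higher in rat sperm was 217 per 1000000 listed reads and 53 per 1000000 member reads, against 479 as reported; those higher in mouse sperm were 53 and 64, against 53. The majority of starts toward the rat was therefore gone under the second of these. With a minimum of 100 reads kept, 70 starts were higher in mouse sperm and 411 in rat sperm per 1000000 member reads. Apart from the shared sequences, the differences in percentage points above kept their direction in the alternatives run. The equal minimum tests fewer starts by construction; the cause of the other shifts was not tested, and depth limits the count of shared sequences. No paired analysis was possible because there is 1 library per species.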
